A study of Caenorhabditis elegans with 2 samples.

Results

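The mitochondrial ribosomal protein genes of *Caenorhabditis elegans* were taken as every protein-coding gene whose Ensembl name starts with *mrpl-* or *mrps-*. There were 70 of them among 19973 protein-coding genes on the 6 nuclear chromosomes, 41 of the large subunit (*mrpl-*) and 29 of the small subunit (*mrps-*). Sites of the Hox protein LIN-39 at these genes were read from chromatin immunoprecipitation and sequencing (ChIP-seq) of whole L3 larvae. A single group was sampled (eGFP-LIN-39 L3): 2 biological replicates, numbered as in the labels, each of whole larvae of strain OP18 with the sexes pooled. These animals carry the mutation *unc-119(ed3)* on chromosome III and the insertion wgIs18 with eGFP-tagged *lin-39*, and the antibody field of the labels names lin-39. The promoter that drives the tagged copy is not stated in the labels. Whole animals were used, so the cells in which a site was occupied are unknown, and with a single group no condition was compared. A gene was counted as bound where the summit of a peak lay in its body or up to 2000 bp upstream of its start.

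Mitochondria keep a small genome whose messages encode parts of the respiratory chain, and they translate them on ribosomes of their own. The ribosomal RNAs come from the mitochondrial genome, whereas in animals every protein of the mitochondrial ribosome is encoded in the nucleus, made in the cytosol and imported. In worms, lowered levels of mitochondrial ribosomal proteins such as that of *mrps-5* are known to induce the mitochondrial unfolded protein response and to lengthen life. Many housekeeping genes of this species lie in operons, in which a promoter ahead of the first gene serves the genes behind it, and the joint transcript is cut up by trans-splicing.

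The peak lists hold no read counts, so the depth of the libraries is unknown, and the signal of a peak is a value set by the authors that carries no error and can be compared within a list only. The list that the authors thresholded on reproducibility, called optimal, held 4250 peaks with a signal from 33.1 to 542. It was the same as the 4250 strongest of the 30000 peaks of the relaxed list of both replicates pooled. There were 30000 peaks in the relaxed list of replicate 1 and 27572 in that of replicate 2. Not every optimal peak was found in both: 4074 matched a peak of replicate 1's relaxed list and 4228 one of replicate 2's. For a comparison at equal length, the 4250 strongest peaks of each replicate are called its own strongest below. The targeted gene *lin-39* held 0 summits in its window in each of these lists.

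The sequences under 6 of the strongest summits at these genes show what the sites look like. They belong to the strongest bound members not on the first chromosome, read 5′ to 3′ on the strand of the named gene from the RefSeq assembly WBcel235, the same build as ce11. Capitals mark matches to 1 of 5 motifs searched on both strands: TGATNNAT (Hox with Pbx), TAATNA (Hox core), TGACAG (Meis), GAGAGA and TATAAA. Windows of 101 bases centred on the summit are shown. At *mrpl-44*, whose summit lay in the 3′ UTR, only 30 bases around the motif are shown.
mrps-28, chrV:19643168-19643268, plus strand: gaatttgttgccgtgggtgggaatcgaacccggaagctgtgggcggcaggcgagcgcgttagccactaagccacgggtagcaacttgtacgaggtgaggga
mrpl-44, chrIII:9084481-9084510, minus strand: catcggctcctTGATAAATgatggggtccc
mrpl-37, chrII:13575651-13575751, minus strand: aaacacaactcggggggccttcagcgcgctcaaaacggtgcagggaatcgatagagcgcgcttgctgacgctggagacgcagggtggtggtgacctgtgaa
mrps-7, chrIV:14767842-14767942, minus strand: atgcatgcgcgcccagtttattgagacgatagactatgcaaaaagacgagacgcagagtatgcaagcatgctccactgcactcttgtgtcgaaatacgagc
mrpl-28, chrII:156060-156160, minus strand: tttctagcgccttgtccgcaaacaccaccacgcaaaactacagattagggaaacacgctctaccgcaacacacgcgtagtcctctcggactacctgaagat
mrpl-49, chrV:12728414-12728514, plus strand: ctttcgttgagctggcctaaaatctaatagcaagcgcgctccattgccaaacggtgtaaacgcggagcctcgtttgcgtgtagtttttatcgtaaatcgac

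The composite motif TGATNNAT, which Hox proteins bind together with Pbx cofactors, was found within 50 bp of the strongest summit at 1 of the 26 bound members (3.85%), against 379 of 4250 optimal summits (8.92%). The match was TGATAAAT, 5 bp from the *mrpl-44* summit shown above. The Hox core TAATNA was found at 2 member summits (7.69%), against 8.19% of all optimal summits. TGACAG and TATAAA were found at 0 of 26, against 4.09% and 2.85%, and GAGAGA at 3 (11.5%), against 28.2%. The median GC content of these windows was 48.5% at member summits and 48.5% at all optimal summits. A match or its absence describes these letters in this window only. Member summits lay at promoters, as defined below, more often than all optimal summits (92.3% against 51.2%). For the strongest summits of all bound genes, taken by the same rule as those of members, the share was 76.4%. Motif shares at promoter summits alone were not taken.

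In all, 26 of the 70 mitochondrial ribosomal protein genes were bound in the optimal list (37.1%, 95% Wilson interval 26.8 to 48.9%), against 3842 of all 19973 protein-coding genes (19.2%). The large subunit had 16 of 41 bound (39.0%) and the small subunit 10 of 29 (34.5%). The windows of members were shorter, with a median of 3126 bp, against 4027 bp over all genes, and the longer a window the more places it offers for a summit. Among the 6079 protein-coding genes whose window length lay within the members' quartiles (2790 to 3773 bp), 12.7% were bound. The intervals cover the counting of genes only, and no test of the list was made. Members do not stand alone in the genome either, since a summit between neighbours counts for both.

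The replicates differed in how many members they marked. Replicate 1's own strongest peaks marked 16 of 70 members (22.9%, interval 14.6 to 34.0%), against 18.3% of all protein-coding genes. Replicate 2's own strongest peaks marked 25 (35.7%, interval 25.5 to 47.4%), against 19.0% of all. The interval of replicate 1 takes in the share of all genes and that of replicate 2 lies above it. Both replicates' own strongest peaks marked the same 14 members, against 13.1% of all genes, and the optimal list bound them all, against 12.8% of all genes that passed in the 3 lists together. Of these 14, 10 belonged to the large subunit and 4 to the small. By these lists the small subunit differed most between the replicates. It had 5 of 29 genes in replicate 1 (17.2%, against 18.3% of all genes) and 11 in replicate 2 (37.9%, against 19.0%). The large subunit had 11 (26.8%) and 14 (34.1%) of 41. In the whole relaxed lists the order was reversed for the small subunit, with 29 of 29 genes in replicate 1 and 21 in replicate 2. Of all genes 66.6% and 53.5% had a summit there.

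The weaker peaks of the relaxed lists reached most members. The pooled list had a summit in the window of 63 members (90.0%), against 61.5% of all genes. In replicate 1's whole relaxed list 59 members (84.3%) had a summit, against 66.6% of all genes, and in replicate 2's 57 (81.4%), against 53.5%.

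**Figure D1:**
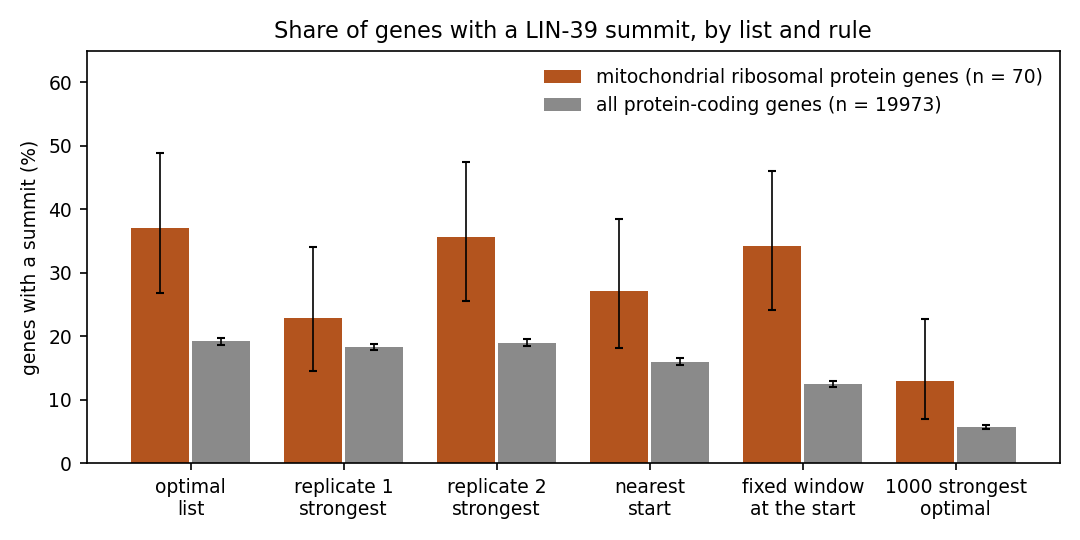
Share of genes with a LIN-39 summit (%, vertical axis) among the 70 mitochondrial ribosomal protein genes (left bar of each pair) and all 19973 protein-coding genes (right bar), by peak list or rule. Lines are 95% Wilson intervals; the shares of the members lie above those of all genes in each pair, closest in replicate 1's own strongest peaks (22.9% against 18.3%).

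Most summits lay ahead of the genes, close to the start. Of the 26 strongest summits of bound members, 14 lay within 200 bp upstream of the gene's own start, which is 20.0% of the 70 members, against 4.04% of all genes. Within 500 bp upstream there were 17 (65.4% of the bound members, against 42.2% of the bound genes overall). A further 8 lay farther upstream, up to 2000 bp, and 1 inside the gene (3.85%, against 23.2%). A promoter of some protein-coding gene (1000 bp ahead of a transcript start and 200 bp behind it) held 24 of the 26 (92.3%), against 76.4% over all bound genes. By annotation, 22 summits were intergenic, 2 lay in introns of neighbouring genes, 1 in the 3′ UTR of *mrpl-44* and 1 in the 5′ UTR of *sws-1*, which overlaps the start of *mrps-35*. With a window of equal length for every gene, from 1000 bp upstream to 500 bp downstream of the start, 24 members were bound (34.3%), against 12.4% of all genes.

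**Figure D2:**
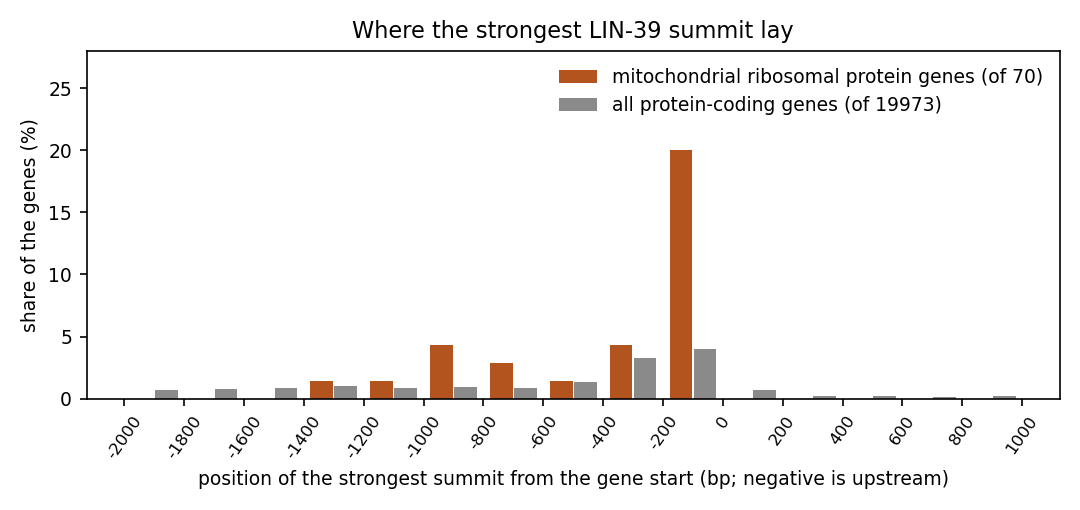
Position of the strongest optimal summit relative to the gene start (bp in bins of 200, horizontal axis; negative is upstream) as a share of the 70 mitochondrial ribosomal protein genes (left bars) and of all 19973 protein-coding genes (right bars). The bin just upstream of the start holds 20.0% of the members and 4.04% of all genes; summits over 1000 bp inside a gene, such as that of *mrpl-44*, fall outside the plot.

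Signal at bound members stayed well under the highest of the list. The strongest summit of each bound member had a signal from 34.0 to 128, with a median of 64.5, against a median of 58.8 over all 3842 bound genes, among which the highest was 542. By rank in the optimal list these summits ran from 272 to 4106 with a median of 1482, against a median of 1755.5 over all bound genes. Among the 1000 strongest optimal peaks were 9 of the 26 (34.6%), near the 30.0% over all bound genes. None of the 26 summits was shared between members, and 3 genes, *mrps-28*, *mrpl-15* and *mrpl-40*, had 2 optimal summits each.

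In the large subunit the strongest site was at *mrpl-44*, which encodes mL44, named as a protein particular to mitochondrial ribosomes. Its peak (chromosome III, 9084436 to 9084523, signal 127) ranked 339 in replicate 1 and 376 in replicate 2. The summit lay inside the gene (-4871 bp on the scale of distance upstream of the start) and was the only one inside the body of a bound member. The *mrpl-23* peak (signal 119), for the protein uL23m, ranked 469 in replicate 1 and 316 in replicate 2. It lay 975 bp upstream, inside an intron of *fars-1*, a cytosolic phenylalanyl-tRNA synthetase gene, with the snoRNA gene *T08B2.13* and the ncRNA gene *T08B2.14* within 200 bp. The *mrpl-15* peak (signal 115, 620 bp upstream), for uL15m, ranked 748 in replicate 1 and 222 in replicate 2, and its second summit of signal 42.5 lay 1028 bp upstream. These 3 sites were among the 1000 strongest of either replicate.

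The next large-subunit sites lay in promoters shared with a neighbour or in the member's own. *mrpl-37* (mL37, signal 112) ranked 222 in replicate 1 and 793 in replicate 2, with the summit 633 bp upstream and 224 bp from the start of *lin-38*, its neighbour on the opposite strand. *mrpl-28* (bL28m, signal 89.6) ranked 639 in replicate 1 and 827 in replicate 2, 101 bp upstream and in the window of no other gene. *mrpl-17* (bL17m, signal 86.6) ranked 1232 in replicate 1 and 512 in replicate 2, 185 bp upstream and also in the windows of *vbh-1*, a DEAD-box helicase gene, and *Y54E10A.6*. Both replicates placed all of these in their own strongest peaks. *mrpl-49* (mL49, signal 81.5) ranked 2383 in replicate 1 and 469 in replicate 2, and its summit, 167 bp upstream, lay also in the window of *rpl-28*, a gene of the cytosolic ribosome on the opposite strand. *mrpl-45* (mL45, signal 72.0) ranked 1445 in replicate 1 and 1328 in replicate 2, 342 bp upstream. In people mL45 helps to hold the mitochondrial ribosome at the inner membrane. *mrpl-12* (signal 68.2), named for the stalk protein that in bacteria recruits translation factors, ranked 547 in replicate 1 but 4418 in replicate 2, just outside its own strongest peaks.

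The other bound large-subunit genes were *mrpl-47*, *mrpl-40*, *mrpl-55*, *mrpl-9*, *mrpl-18*, *mrpl-35* and *mrpl-36*, with signals from 35.8 to 64.6. The *mrpl-47* summit (uL29m) lay 22 bp upstream of its start, closer than that of any other bound member, and in the window of *let-363*, the worm's TOR kinase gene. The *mrpl-9* summit lay 118 bp upstream and was shared with *kin-3*, which encodes a casein kinase II catalytic subunit, and with the proteasome gene *rpn-10*. The *mrpl-36* peak ranked 23115 in replicate 1 and 2130 in replicate 2. The *mrpl-35* peak (rank 12194 in replicate 1 and 4358 in replicate 2) was the only one outside the own strongest peaks of both replicates.

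In the small subunit the strongest site counted for *mrps-28* (chromosome V, 19643060 to 19643375, signal 128), which ranked 106 in replicate 1 and 837 in replicate 2. Its summit lay 1021 bp upstream, in an intron of *Y43F8C.7* and within 200 bp of the snoRNA gene *Y43F8C.22*. A second summit of signal 71.8 lay 116 bp upstream of *mrps-28*. *mrps-7* (uS7m, a protein of the head of the small subunit in bacteria, signal 96.0) ranked 978 in replicate 1 and 561 in replicate 2, 162 bp upstream. *mrps-17* (uS17m, signal 69.9) ranked 355 in replicate 2 but 12375 in replicate 1, with its summit 162 bp upstream, between it and *txdc-9*.

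The remaining bound small-subunit genes were *mrps-21*, *mrps-31*, *mrps-10*, *mrps-15*, *mrps-18.C*, *mrps-16* and *mrps-35*, with signals from 34.0 to 53.5. *mrps-21* ranked 1156 in replicate 1 and 3882 in replicate 2, and *mrps-18.C* 3492 in replicate 1 and 3844 in replicate 2, so that both were in the own strongest peaks of either replicate. *mrps-31* (mS31), *mrps-10* (uS10m), *mrps-15* (uS15m), *mrps-16* (bS16m) and *mrps-35* were in those of replicate 2 and not of replicate 1. The *mrps-15* peak, 51 bp upstream and shared with *asg-1*, a gene of the ATP synthase, ranked 17574 in replicate 1 and 1954 in replicate 2. By RefSeq product, 32 members carried a name for proteins with a bacterial counterpart, and 13 of these were bound. Of 19 with a name for proteins particular to mitochondria 7 were bound, and 6 of 19 without such a name. Over all protein-coding genes 19.2% were bound. These groups follow the product names only, so members with a general product name, such as *mrpl-12*, fall in the last group whatever their origin. No test between the groups was made.

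The replicates did not rank the 26 sites alike. The strongest summit was in the own strongest peaks of both replicates at 14 bound members (53.8%), near the 55.4% of all optimal peaks. It was in those of replicate 2 alone at 10 (38.5%), against 24.4% of all optimal peaks, and in those of replicate 1 alone at 1 (3.85%), against 16.8%. Replicate 2 gave the better rank at 18 of the 26 (69.2%), against 52.9% of all optimal peaks. The median rank of the 26 was 2184.5 in replicate 1 and 1518.5 in replicate 2. The medians of the optimal peaks that had a match were 2240.5 (4074 peaks) and 2217.5 (4228 peaks), with unmatched peaks left out. Among the 10 bound members of lowest signal, 9 ranked beyond 4250 in replicate 1 and 1 in replicate 2. Of all 1858 optimal peaks that ranked no higher than these 10, 50.6% were beyond 4250 or unmatched in replicate 1 and 36.7% in replicate 2. Of the other 16 members 2 ranked beyond 4250 in replicate 1 (12.5%), against 9.95% of the stronger optimal peaks. These 10 members were set apart after their values were seen, and no test was made.

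**Figure D3:**
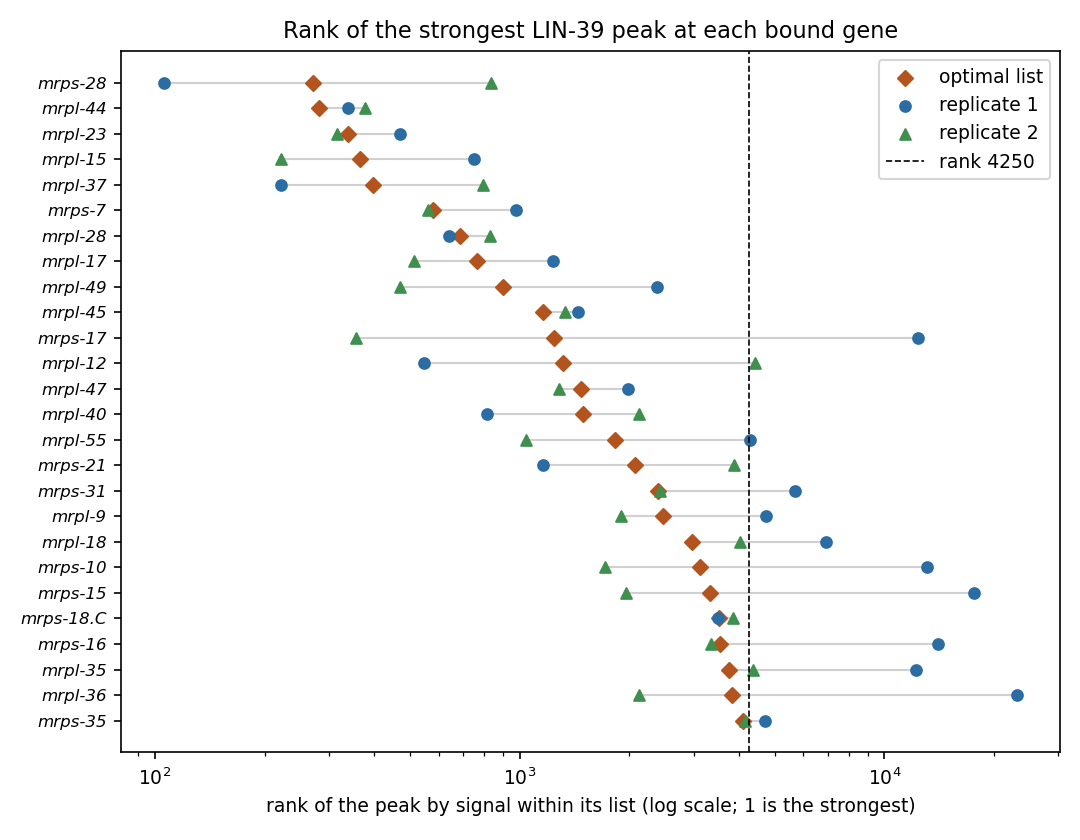
Rank by signal (log scale, horizontal axis; 1 is the strongest) of the strongest peak at each of the 26 bound mitochondrial ribosomal protein genes in the optimal list (diamonds), replicate 1 (circles) and replicate 2 (triangles). In the lower rows, where signal is weakest, circles lie right of the dashed line at rank 4250 for 9 of 10 genes.

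Most of these summits were shared with a neighbour. The strongest summit lay in the window of at least 1 other protein-coding gene at 21 of 26 bound members, and in that of the member alone at 5 (19.2%), against 44.7% over all bound genes. The member's own start was the nearest protein-coding start at 14 of the 26 (53.8%), against 68.1% over all bound genes. Where every optimal summit counted for the gene with the nearest start only, 19 members were bound (27.1%), against 16.0% of all genes. These include *mrpl-20*, *mrpl-32* and *mrpl-51*, which had no optimal summit in their own window. The large subunit then had 14 of 41 and the small subunit 5 of 29. From these data a summit between divergent genes cannot be assigned to either gene.

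The arrangement of the members went with where summits were found. Each gene was classed by the nearest protein-coding gene on its upstream side: on the opposite strand, on the same strand within 500 bp (the spacing of genes in operons, though the annotation used here names no operons), or on the same strand farther away. Of the 35 members next to a gene on the opposite strand, 21 were bound, against 24.0% of all genes so placed. Of the 29 members close behind a gene on the same strand, 3 were bound (10.3%), against 15.7% of all such genes. Of the 6 others 2 were bound, against 14.8% of all such genes. Members lie in close tandem more often than genes at large, 41.4% of them against 20.6%. Replicate 1's own strongest peaks marked 11 of the 35 divergent members (31.4%), against 22.1% of all genes so placed, a smaller gap than in the optimal list. Those of replicate 2 marked 19 (54.3%), against 23.7%. Of the 29 members in close tandem replicate 1 marked 4, against 15.1% of all such genes, and replicate 2 marked 3, against 15.3%.

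For the members in close tandem, summits were found farther up, at the first gene of the run. Each run was followed upstream through genes of the same strand no more than 500 bp apart, and an optimal summit was sought from 2000 bp upstream to 200 bp downstream of the start of its first gene. Such a summit was found for 18 of the 29 members (62.1%), against 27.7% of all 4105 genes in close tandem. With the own strongest peaks of replicate 1 it was found for 16 and with those of replicate 2 for 18, against 23.9% and 27.6% of all such genes. The 29 members belonged to 28 runs, of which 17 had the summit, and 15 of the 18 members were not bound by the gene window itself. These summits lay 990 to 9041 bp ahead of the member, with a median of 3825.5 bp and a median signal of 63.6.

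The first genes of these runs serve several functions. The strongest summit (signal 153) lay 261 bp upstream of *clsp-1*, the gene ahead of *mrpl-54*, itself without a summit in any list. Next came that of *atp-2* (signal 123, 256 bp upstream), the gene of the beta subunit of ATP synthase, which heads a run with *prmt-5* and *mrps-26*. The proteasome gene *rpn-3* (signal 120, 207 bp upstream) stands ahead of *mrpl-32*. *eif-3.E*, a translation initiation factor gene (signal 72.7, 192 bp upstream), heads the run of *mrps-30*, and *cct-2*, a chaperonin gene (signal 46.7, 338 bp upstream), that of *mrpl-50*. *natc-1* (signal 71.9, 61 bp upstream) heads a run of both *mrps-2* and *mrpl-4*. No optimal summit was found at *sel-1*, the gene ahead of *mrps-5*, nor at the first genes ahead of *mrpl-1*, *mrpl-2*, *mrpl-19*, *mrpl-21*, *mrpl-24*, *mrpl-42*, *mrpl-48*, *mrpl-53*, *mrps-9* and *mrps-22*. Counting a summit in the gene's own window or at the first start of its run, 41 of the 70 members had one, against 23.2% of all protein-coding genes.

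**Figure D4:**
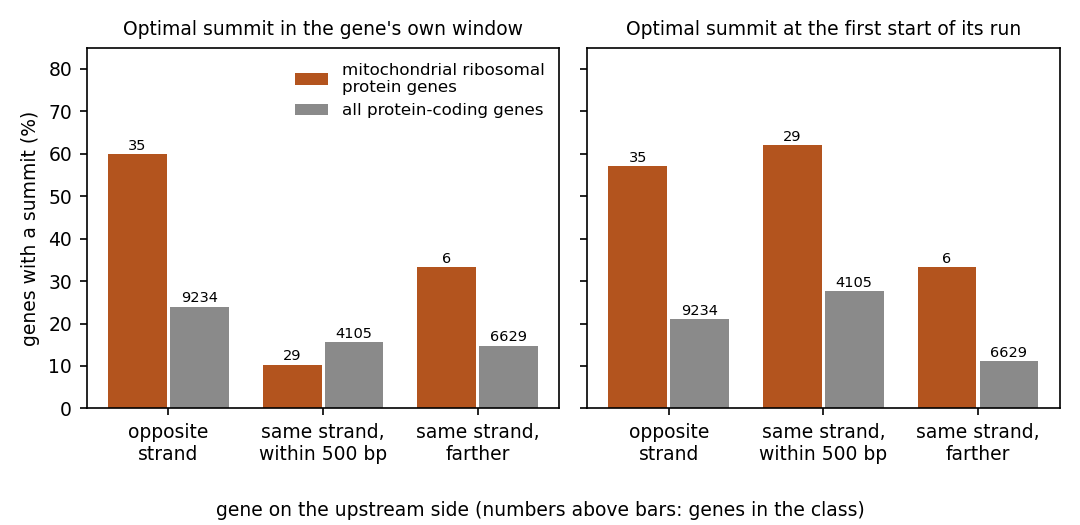
Share of genes with an optimal LIN-39 summit (%, vertical axis) by the gene on their upstream side, for mitochondrial ribosomal protein genes (left bars) and all protein-coding genes (right bars), with the number of genes in the class above each bar. The left panel counts summits in the gene's own window, the right panel summits from 2000 bp upstream to 200 bp downstream of the first start of its run; members in close tandem stand at 10.3% on the left and 62.1% on the right.

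Of the 44 members that were not bound in the optimal list, 37 had a weaker pooled summit in their window and 7 had none. Of all protein-coding genes, 16131 were not bound in the optimal list, and 7685 of these had no pooled summit either. The strongest of these was at *mrps-18C* (signal 31.5, pooled rank 4521), 463 bp upstream, which ranked 2590 in replicate 2 and matched no peak of replicate 1. RefSeq gives the product of this gene as uL3m, a protein of the large subunit, at odds with its name. *mrpl-39* followed with signal 30.9 (131 bp upstream, rank 23805 in replicate 1 and 5343 in replicate 2). *mrps-12* (uS12m, which in bacteria lies at the decoding centre) had signal 29.2, 136 bp upstream, with rank 3915 in replicate 1 and 7259 in replicate 2. *mrps-23*, *mrps-6* and *mrpl-32* came next, at 26.5, 26.5 and 23.8. *mrps-5* had its strongest pooled summit at signal 9.47 (pooled rank 19782), 570 bp upstream, in replicate 1 at rank 13740 and with no matching peak in replicate 2. *mrpl-21* and *mrpl-54* had no summit in any list. Binding in few cells of the larva may leave no peak.

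The bound members were spread over the autosomes: 10 of 22 on chromosome III, 6 of 15 on I, 4 of 12 on II, 3 of 11 on IV and 3 of 10 on V, with no member on X. Over all protein-coding genes the bound share was 27.3% on III, 26.1% on I, 18.0% on II, 17.1% on IV and 11.2% on V. A noncoding RNA gene lay within 200 bp of the strongest summit at 2 of the 26 bound members (7.69%), those at *mrps-28* and *mrpl-23*, against 22.7% of all optimal summits. The sets are unlike, since 92.3% of the member summits lay at promoters, against 51.2% of all optimal summits. The share at promoter summits alone was not taken.

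Taken as a whole, a list of other genes of mitochondrial gene expression and mitochondrial stress gave a like share. Its parts did not share this evenly, as given below. Of 33 genes of the list found in the annotation, 12 were bound (36.4%), against 19.2% of all genes. The list was set by gene name, and whether each gene acts in mitochondria was not checked. The own strongest peaks of replicate 1 marked 12 of the 33 (36.4%), against 18.3% of all genes. Those of replicate 2 marked 13 (39.4%), against 19.0%, not all of them the same genes. The strongest sites were at the prohibitin gene *phb-1* (signal 208, 455 bp upstream), at the mitochondrial chaperonin gene *hsp-60* (165, 611 bp upstream) and at *hsp-110* (120, 237 bp upstream), a heat shock gene on the list whose summit is also the one ahead of *rpn-3* in the run of *mrpl-32*. The mitochondrial Hsp70 gene *hsp-6* (113) and the second prohibitin gene *phb-2* (109) followed, and all of these were in the own strongest peaks of both replicates. *ears-2* (98.5), a mitochondrial tRNA synthetase gene, and the protease genes *clpp-1* (57.7) and *spg-7* (49.3) were bound too. So were *atfs-1* (53.8), which encodes the transcription factor of the mitochondrial unfolded protein response, *ubl-5* (40.5), *tufm-1* (38.1), for the mitochondrial elongation factor Tu, and *dnj-10* (34.2). Most of the bound genes were thus of the stress part of the list. In that part *dve-1*, *haf-1*, *lonp-1*, *lonp-2* and *lin-65* were not bound. Of the gene expression part only *ears-2* and *tufm-1* were bound. The mitochondrial RNA polymerase gene *rpom-1*, *hmg-5*, *polg-1*, *twnk-1*, *mtss-1*, *gfm-1*, *tsfm-1* and *tufm-2* were not. Nor were the other tRNA synthetase genes of the list, *dars-2*, *fars-2*, *lars-2*, *nars-2*, *pars-2*, *rars-2*, *sars-2* and *yars-2*. Of the ribosomal protein genes of the cytosol (*rpl-*, *rps-* and *rla-* names) 74 of 81 were bound (91.4%), against 19.2% of all genes. At the 1000 strongest optimal peaks 55 of 81 were bound (67.9%), against 5.76% of all genes. Of the mitochondrial ones 9 of 70 were bound there (12.9%). No test between these lists was made.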

How the data were processed

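Peak lists of LIN-39 ChIP-seq in 2 replicates were used as deposited by the authors on build ce11: a relaxed list per replicate, a pooled relaxed list and an optimal list thresholded on reproducibility. Per the labels, fragments were of 150 to 350 bp. The signal of each peak is the authors' value as deposited. Per the deposited text indexes, the replicates share their control alignments. The aligner, the peak caller and the reproducibility threshold: not given in the sources used here. Deposited ce10 lists were not used here. Summits were peak start plus the deposited offset, in 1-based coordinates. Genes came from Ensembl release 115, products and sequence from RefSeq WBcel235, whose chromosome lengths hold all peaks. Peaks were matched between lists by overlap, taking the nearest summit. The members, lists and rules were chosen with earlier results of these data known, and the search at the first gene of a run was added after seeing the data. Named are all bound members, the 6 strongest unbound ones and those without any summit. The genes of the mitochondrial list are named too, of which 3 of 36 names were not found in the annotation. The split of that list into parts and a few other names came after the values were seen. No p-value was computed. Assignment of summits was tested on simulated data. Python 3.11.15 with numpy 2.4.6 and pandas 2.3.3 was used. Alternatives were other windows, lists and thresholds.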

Additional observations from a re-analysis of the deposited data

How the results depend on the processing

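The count of 26 bound members stayed within 1.5 times with 1000 bp upstream, the window at the gene start, the nearest start, peak midpoints and any overlap of the peak. With 5000 bp upstream it was 41 (25 large and 16 small subunit genes, against 27.0% of all genes). At the 1000 strongest peaks it was 9 (7 and 2, against 5.76%). In the pooled relaxed list it was 63 (35 and 28), in replicate 1's 59 (30 and 29) and in replicate 2's 57 (36 and 21). By the nearest start 5 small-subunit genes were bound. Leaving out a replicate meant taking the other's own list, so these values repeat those given above. Without replicate 2 there were 16 members and 5 small-subunit genes, against 18.3% of all genes, and the median rank was 2184.5. Without replicate 1 there were 25 and 11, against 19.0%, and the median rank was 1518.5. The cause was not tested for these changes. With 25 bp to each side TAATNA was found at 0.0% of member summits, against 4.0% of all optimal summits, and GAGAGA at 7.69%, against 15.7%. With 100 bp TAATNA was found at 26.9%, against 20.4%, TGATNNAT at 11.5%, against 15.1%, GAGAGA at 26.9%, against 44.5%, and TATAAA at 11.5%, against 8.89%. With 200 or 1000 bp counted as close, chosen after seeing the data, 13 of 22 and 19 of 34 members had a summit at the first start of their run, against 33.0% and 23.8% of all such genes. No paired analysis was possible because there is 1 group only. Read depth is unknown, which limits what a missing peak shows.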

Other observations

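Some short words of sequence recurred near the summits of bound members. Among all words of 6 bases, counted on both strands within 50 bp of the summit, GCAAAC and AAAAAC were found at 10 of the 26 strongest member summits each (38.5%). GCAAAC was found at 8.56% of all optimal summits and at 12.3% of the 2178 optimal summits at promoters, and AAAAAC at 14.9% and 16.3%. A further 6 words were found at 8 member summits each (30.8%), against 8.4 to 20.3% of promoter summits. These words were chosen after their counts were seen, from all words of this length, and were not tested.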
